A study of Mus musculus with 8 samples.

Results

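Immune checkpoint genes were examined in whole mouse lung tumors started with or without a guide RNA against *Setd2*. The genes were chosen by symbol and made up 10 of the 48709 genes in the deposited count table. They were 5 ligands, *Cd274* (PD-L1), *Pdcd1lg2* (PD-L2), *Cd80* (B7-1), *Cd86* (B7-2) and *Cd276* (B7-H3), and 5 receptors, *Pdcd1* (PD-1), *Ctla4* (CTLA-4), *Lag3* (LAG-3), *Havcr2* (TIM-3) and *Tigit* (TIGIT). RNA was sequenced from 8 tumors of mice of a mixed B6J/129S4vJae background, all of which carried the same engineered allele that Cre recombinase switches on to start tumors. A lentiviral vector given through the airway carried Cre, Cas9 and a guide RNA, which targeted *GFP* in 4 control tumors (*K-Ctrl*) and *Setd2*, the gene of the enzyme that trimethylates histone H3 at lysine 36, in 4 others (*K-Setd2KO*). Per the study, specimens were matched for stage by histology and the *K-Setd2KO* tumors were low grade adenomas. The mice were not otherwise treated as far as the labels say, and the study used both male and female animals and put an upper limit on age at tumor initiation, with no age or sex given for single tumors in the sources used here. The tumors were not described as sorted, so their RNA is taken here to come from the epithelial cells that received the virus and from every other cell among them. The extraction text speaks of cell lines instead, a difference that was not resolved.

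Checkpoint receptors are surface proteins of activated T cells and other leukocytes that restrain signalling when they meet a ligand on a neighbouring cell. PD-1 binds PD-L1 and PD-L2, and CTLA-4 competes with the costimulatory receptor CD28 for B7-1 and B7-2 on antigen-presenting cells. In the lung, macrophages and dendritic cells carry many of these ligands, while PD-L1 can also be made by epithelial tumor cells, where interferon gamma induces it.

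Total counts ranged from 5806599 to 21290402 per tumor, a 3.67-fold range, so that 3 counts stood for between 0.141 and 0.517 CPM (counts scaled by library size with TMM factors). Genotypes were compared over 14929 tested genes with edgeR's quasi-likelihood test, and a gene was called when its p-value, adjusted by Benjamini-Hochberg over all tested genes, was under 0.05. Fold changes compare *K-Setd2KO* with *K-Ctrl*, on the log2 scale unless a fold is given. *Setd2* mRNA itself averaged 140.1 ± 8.81 CPM in control and 136 ± 15.5 CPM in *K-Setd2KO* tumors (SD, n = 4 each; log2 fold change −0.05, edgeR adjusted p 0.824), so its level did not separate the libraries. Alveolar type 2 markers, which define the cells these tumors resemble, summed to between 44740 and 66138 CPM in *K-Ctrl* and between 53628 and 74842 CPM in *K-Setd2KO*. Of 9 such genes edgeR called 1 higher, *Sftpb*, and 1 lower, *Napsa*. *Sftpb* was called in all 8 fits that left out 1 tumor and *Napsa* in 3 of them.

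Of the 10 checkpoint genes, *Cd274* and *Havcr2* fell in *K-Setd2KO* tumors and 0 genes were called higher by edgeR, DESeq2 or limma voom, or reached an unadjusted p under 0.05 in that direction. These 2 called genes compare with 7.74% of all tested genes that were called lower, and the 2 were also the only checkpoint genes whose tumors did not overlap between the genotypes, against 11.2% of all tested genes that lay lower without overlap. The log2 fold change was below 0 for 9 of the 10 genes, compared with 47.3% of tested genes, and its median was −1.59 over the 10 genes and 0.03 over all tested genes. An unadjusted p under 0.05 with a lower level was reached by 4 genes, *Cd80* and *Cd86* besides the called ones, against 16.3% of tested genes.

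**Figure D1:**
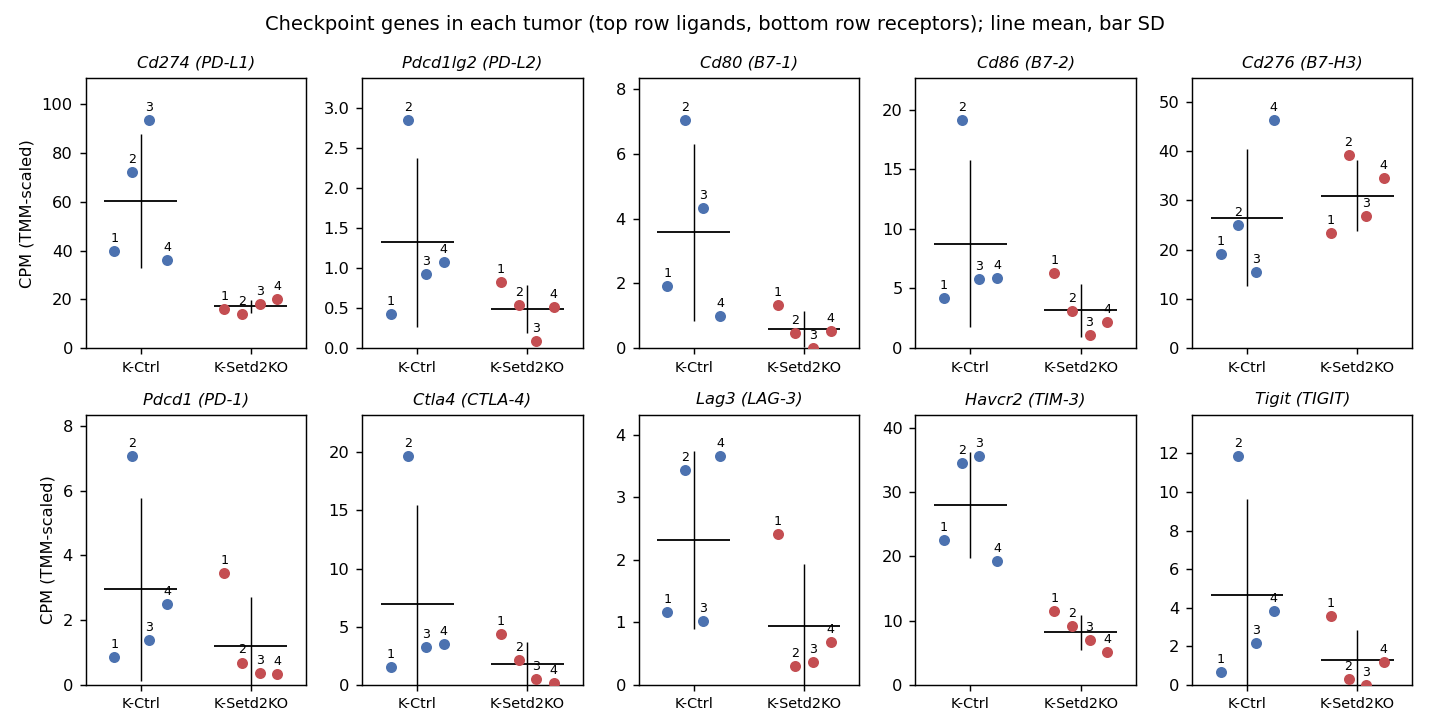
Level of each checkpoint gene in CPM (y axis, linear, TMM-scaled) in each tumor of both genotypes (n = 4 each), with ligands in the top row and receptors in the bottom row; points show 1 tumor each with its replicate number, horizontal lines are means and vertical bars are SDs, drawn down to 0 at most. *Cd274* lies between 35.97 and 93.8 CPM in *K-Ctrl* and between 14.0 and 20.2 CPM in *K-Setd2KO*, and *K-Ctrl* replicate 2 is far above the other tumors for *Ctla4*, *Tigit* and *Cd86*.

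*Cd274*, which encodes the PD-1 ligand PD-L1 (ENSMUSG00000016496.7, GRCm38 chromosome 19, 29367455 to 29388095, plus strand, protein-coding), reached 39.9, 72.4, 93.8 and 35.97 CPM in *K-Ctrl* replicates 1 to 4 and 16.1, 14.0, 18.3 and 20.2 CPM in *K-Setd2KO* replicates 1 to 4. The lowest control tumor stood above the highest *K-Setd2KO* tumor, and the control tumors were the more variable group. Means were 60.5 ± 27.5 and 17.1 ± 2.69 CPM (SD, n = 4 each), so that *Cd274* was 3.54-fold lower in *K-Setd2KO*. The log2 fold change was −1.83 (SE 0.312, 95% interval −2.53 to −1.12, edgeR adjusted p 0.0104). A two-sided exact permutation test gave a p of 0.0286, the smallest that 4 against 4 tumors allow. *Cd274* was backed by 403 to 2031 counts per tumor in *K-Ctrl* and 118 to 313 in *K-Setd2KO*, and it was called in all 8 fits that left out 1 tumor.

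*Havcr2*, the gene of the receptor TIM-3, which dendritic cells and macrophages carry as well as exhausted T cells (ENSMUSG00000020399.14, chromosome 11, 46454935 to 46481255, plus strand, protein-coding), reached 22.6, 34.5, 35.5 and 19.2 CPM in the control tumors and 11.5, 9.10, 7.01 and 5.13 CPM in the *K-Setd2KO* tumors. Again every control tumor lay above every *K-Setd2KO* tumor. The means of 28.0 ± 8.30 and 8.19 ± 2.74 CPM (SD, n = 4 each) differed 3.37-fold, with a log2 fold change of −1.75 (SE 0.296, 95% interval −2.42 to −1.09, edgeR adjusted p 0.00974) and an exact permutation p of 0.0286. *Havcr2* rested on 215 to 770 counts per control tumor and 30 to 224 per *K-Setd2KO* tumor, and it too was called in all 8 fits without 1 tumor.

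Since *Cd274* and *Havcr2* were the genes that fell, the 250 bases before their starts are shown, from RefSeq promoters of build GRCm38.p6, in which 8 of the 10 checkpoint genes had an entry. Distances are counted from RefSeq's starts, which can differ from those of the gene intervals given here. The first lies at chr19:29367188-29367437 and the second at chr11:46454681-46454930, both on the plus strand and written 5′ to 3′, with capitals marking the letters of motifs found by the search:
*Cd274*: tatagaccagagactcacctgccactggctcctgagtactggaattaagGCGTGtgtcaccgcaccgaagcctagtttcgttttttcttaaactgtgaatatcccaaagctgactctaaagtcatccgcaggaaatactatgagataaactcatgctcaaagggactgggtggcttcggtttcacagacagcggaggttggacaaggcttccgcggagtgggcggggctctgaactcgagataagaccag
*Havcr2*: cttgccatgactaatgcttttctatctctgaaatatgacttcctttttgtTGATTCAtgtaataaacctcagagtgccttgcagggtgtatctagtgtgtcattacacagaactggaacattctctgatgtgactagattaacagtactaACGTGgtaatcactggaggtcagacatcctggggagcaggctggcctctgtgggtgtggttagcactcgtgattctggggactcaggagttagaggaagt
The search covered both strands for letters bound by factors known from immune genes: GAAA and GAAA 2 bases apart (interferon regulatory factors), TTC and GAA 3 bases apart (STAT), GGG and TTTCC 2 bases apart (NF-kB), ACGTG and GCGTG (the core of the hypoxia response element) and TGANTCA (AP-1), with no overlap between marked matches. *Cd274* held GCGTG starting 201 bases before its start, letters found in 28.2% of 32851 promoters of the same length. *Havcr2* held TGATTCA, the AP-1 letters, 200 bases and ACGTG 100 bases before its start, found in 6.75% and 16.6% of promoters. Neither window held the interferon, STAT or NF-kB letters, which 2.98%, 7.02% and 1.41% of promoters did. *Cd80* had the AP-1 letters 42 bases before its start, *Ctla4* and *Tigit* had the ACGTG core on the minus strand at 199 and 45 bases (for *Ctla4* in a window at 60908775 to 60909024, inside its gene interval), and *Pdcd1lg2*, *Cd276* and *Pdcd1* had none of the letters. *Cd86* and *Lag3* had no entry. A match of so few letters describes the window and does not mark a bound site.

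Among the B7 ligands, *Cd80* and *Cd86*, which antigen-presenting cells show to CD28 and CTLA-4, were not called. *Cd80* (ENSMUSG00000075122.4, chromosome 16, 38458933 to 38486933, plus strand) was at 1.91, 7.06, 4.34 and 0.982 CPM in *K-Ctrl* and at 1.34, 0.459, 0 and 0.513 CPM in *K-Setd2KO*. Its groups overlapped through *K-Setd2KO* replicate 1 alone, which lay above *K-Ctrl* replicate 4. The log2 fold change was the lowest of the 10 genes at −2.52, with a wide interval (SE 0.883, 95% interval −4.51 to −0.53, edgeR adjusted p 0.0915), and it ran from −1.98 without *K-Ctrl* replicate 2 to −3.49 without *K-Setd2KO* replicate 1. DESeq2 did call *Cd80* (adjusted p 0.0166), and limma voom did not (adjusted p 0.120). *K-Setd2KO* replicate 3 had 0 counts of *Cd80*, which allows up to 0.281 CPM at its depth, and the other *K-Setd2KO* tumors had 26, 6 and 3 counts.

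*Cd86* (ENSMUSG00000022901.13, chromosome 16, 36603869 to 36666081, minus strand) was at 4.19, 19.2, 5.77 and 5.89 CPM in *K-Ctrl* and at 6.27, 3.14, 1.11 and 2.22 CPM in *K-Setd2KO*. *K-Ctrl* replicate 2 was more than 3 times as high as any other tumor, and *K-Setd2KO* replicate 1 exceeded the 3 remaining controls. The log2 fold change was −1.42 (SE 0.622, 95% interval −2.82 to −0.02, edgeR adjusted p 0.163), and −0.70 without *K-Ctrl* replicate 2.

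*Pdcd1lg2*, the gene of the other PD-1 ligand, PD-L2 (ENSMUSG00000016498.9, chromosome 19, 29410919 to 29471157, plus strand), lies downstream of *Cd274* on the same strand. Its levels were 0.431, 2.86, 0.923 and 1.07 CPM in *K-Ctrl* and 0.822, 0.535, 0.0923 and 0.513 CPM in *K-Setd2KO*, with overlapping groups and only 1 to 34 counts in any tumor. The log2 fold change was −1.34 (95% interval −2.95 to 0.26, edgeR adjusted p 0.241), and −0.66 without *K-Ctrl* replicate 2.

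*Cd276*, the gene of B7-H3, a B7 relative common on tumor and stromal cells (ENSMUSG00000035914.10, chromosome 9, 58524300 to 58555132, minus strand, overlapping 1 gene on the opposite strand), was the only checkpoint gene with a value above 0. It was at 19.2, 25.0, 15.4 and 46.4 CPM in *K-Ctrl* and at 23.4, 39.2, 26.8 and 34.6 CPM in *K-Setd2KO*. The highest tumor was *K-Ctrl* replicate 4, and the groups overlapped throughout. The log2 fold change was 0.23 (SE 0.336, 95% interval −0.53 to 0.99, edgeR adjusted p 0.688). Every tumor had 202 to 520 counts of this gene. Its value ran from 0.04 without *K-Ctrl* replicate 3 to 0.64 without *K-Ctrl* replicate 4, with no call in either fit.

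The 4 receptors best known from T cells had low counts and wide intervals. *Pdcd1*, the gene of PD-1 (ENSMUSG00000026285.7, chromosome 1, 94038305 to 94052553, minus strand), was at 0.862, 7.06, 1.38 and 2.499 CPM in *K-Ctrl* and at 3.44, 0.688, 0.369 and 0.342 CPM in *K-Setd2KO*. *Ctla4*, which encodes the CD28 competitor CTLA-4 (ENSMUSG00000026011.13, chromosome 1, 60887000 to 60915832, plus strand, with the pseudogene *Rpl18-ps1* inside it on the same strand), was at 1.54, 19.7, 3.23 and 3.48 CPM in *K-Ctrl* and at 4.37, 2.14, 0.461 and 0.171 CPM in *K-Setd2KO*. For both genes *K-Ctrl* replicate 2 was the highest of the 8 tumors and *K-Setd2KO* replicate 1 the second highest. *Tigit*, whose product binds the poliovirus receptor and nectin-2 (ENSMUSG00000071552.4, chromosome 16, 43648861 to 43664184, minus strand), was at 0.677, 11.8, 2.17 and 3.84 CPM in *K-Ctrl* and at 3.54, 0.306, 0 and 1.198 CPM in *K-Setd2KO*. *Lag3*, which encodes a CD4-related receptor of MHC class II (ENSMUSG00000030124.2, chromosome 6, 124904361 to 124911705, minus strand), was at 1.17, 3.45, 1.02 and 3.66 CPM in *K-Ctrl* and at 2.41, 0.306, 0.369 and 0.685 CPM in *K-Setd2KO*. In each of these genes *K-Setd2KO* replicate 1 lay within the range of the controls, and the groups overlapped.

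None of the 4 was called by edgeR. The log2 fold changes were −1.17 for *Pdcd1* (95% interval −3.14 to 0.80, adjusted p 0.407), −1.86 for *Ctla4* (−4.10 to 0.38, adjusted p 0.243), −1.80 for *Tigit* (−4.36 to 0.76, adjusted p 0.322) and −1.20 for *Lag3* (−2.86 to 0.46, adjusted p 0.310). Single tumors moved these values. Without *K-Ctrl* replicate 2 they were −0.28, −0.55, −0.75 and −0.95, and without *K-Setd2KO* replicate 1 they were −2.57, −2.78, −3.40 and −2.40, with no gene called in either fit. The weakest value of *Lag3*, −0.89, came without *K-Ctrl* replicate 4, its highest tumor. *Lag3* lies on chromosome 6, whose 839 tested genes had a median log2 level 0.33, 0.32 and 0.38 above the control mean in *K-Setd2KO* replicates 1, 3 and 4 and −0.03 in replicate 2, and the part of this shift in the *Lag3* value was not tested.

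**Figure D2:**
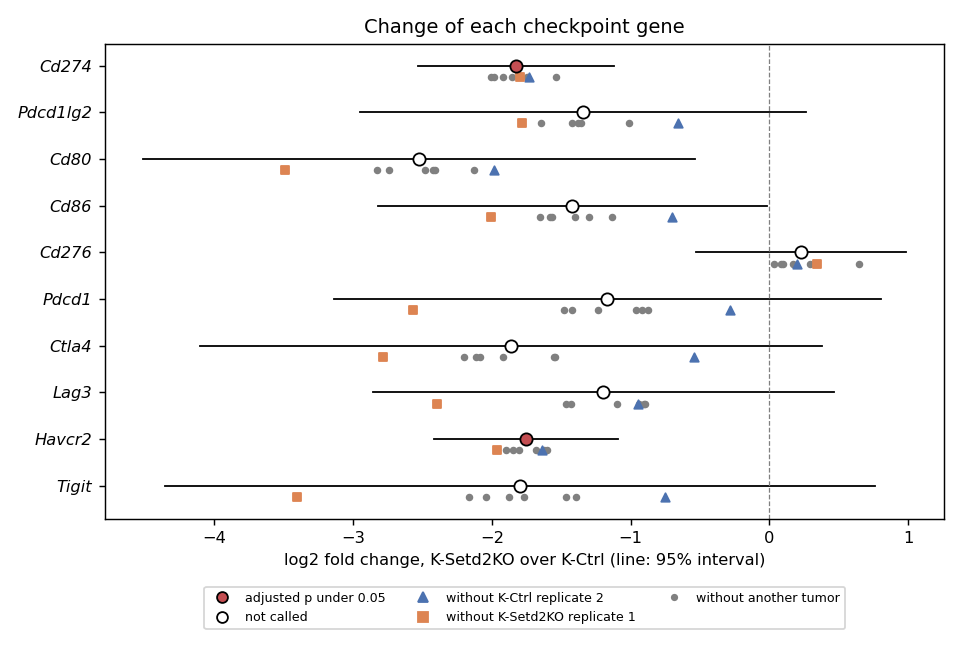
Log2 fold change of *K-Setd2KO* over *K-Ctrl* (x axis) for each checkpoint gene, with its 95% interval as a line; filled circles are genes called by edgeR, open circles genes not called, and the smaller symbols below each line are the fits that left out 1 tumor. *Cd274* and *Havcr2* stay between −2.01 and −1.53 in every such fit, while *Tigit* runs from −3.40 without *K-Setd2KO* replicate 1 to −0.75 without *K-Ctrl* replicate 2.

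Each of the 10 genes passed the expression filter, and none had a median under 10 counts in both groups, the limit set for a gene too low to judge. In *K-Setd2KO* alone, however, the median was 5 counts for *Pdcd1lg2*, 4.5 for *Cd80*, 6.5 for *Pdcd1*, 4 for *Lag3* and 5.5 for *Tigit*, so the fold changes of these 5 genes rested on few counts there. For *Pdcd1*, *Lag3*, *Tigit* and *Ctla4*, the last with 1 to 85 counts per *K-Setd2KO* tumor, no alternative fit made a call, and a difference was not detectable at this depth and spread, which does not show that the genotypes are alike. Among the alternative fits, *Cd80* was called by DESeq2 and with a sex term, and *Pdcd1lg2* and *Cd86* with a sex term alone. *Cd274*, *Havcr2*, *Cd276* and *Cd86* were the 4 genes with at least 10 counts in every tumor.

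Levels of different genes can be compared only per exon length. In CPM per kilobase, *K-Ctrl* tumors held 16.7 ± 7.601 of *Cd274*, 10.3 ± 3.05 of *Havcr2*, 8.03 ± 4.202 of *Cd276*, 4.81 ± 5.17 of *Tigit* and 3.00 ± 3.65 of *Ctla4* (SD, n = 4). The other 5 genes were between 0.803 ± 0.645 for *Pdcd1lg2* and 2.39 ± 1.91 for *Cd86*. The places of *Tigit* and *Ctla4* leaned on *K-Ctrl* replicate 2, without which their means were 2.31 ± 1.64 and 1.2 ± 0.453 (SD, n = 3), the latter below *Cd86* (1.44 ± 0.260) and *Cd80* (1.42 ± 1.02). Every pair of neighbours in this order overlapped between control tumors. In *K-Setd2KO* the order opened with *Cd276* at 9.40 ± 2.19, followed by *Cd274* at 4.73 ± 0.741 and *Havcr2* at 3.01 ± 1.01 CPM per kilobase, and closed with *Pdcd1lg2* at 0.298 ± 0.183. There the lowest *Cd276* value, 7.09, was above the highest *Cd274* value, 5.58, whereas *Cd274* and *Havcr2* overlapped.

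**Figure D3:**
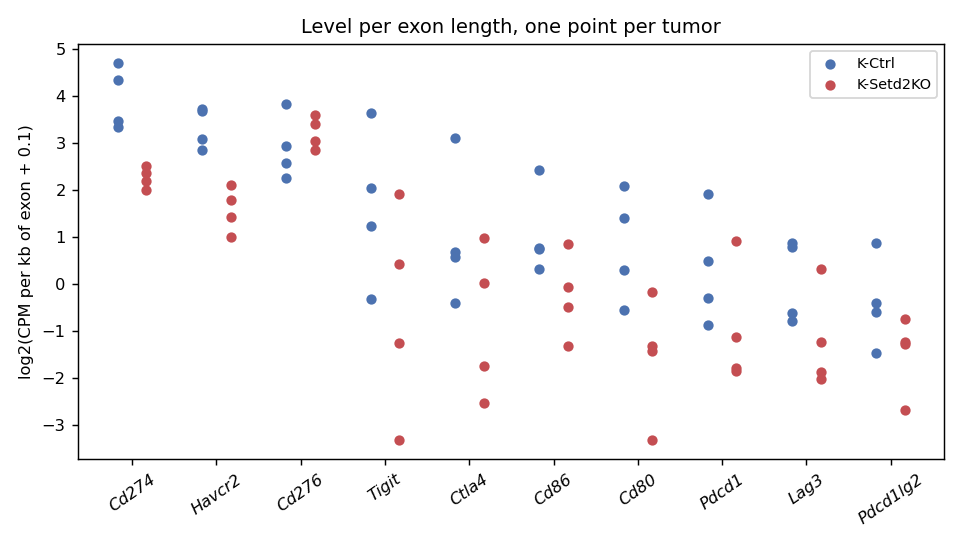
Level of each checkpoint gene on the scale log2(CPM per kilobase of exon + 0.1) (y axis), 1 point per tumor, *K-Ctrl* left and *K-Setd2KO* right of each tick, ordered by the *K-Ctrl* mean. *Cd274*, *Havcr2* and *Cd276* have the highest means in both groups, and points at the bottom of the *Cd80* and *Tigit* columns are *K-Setd2KO* replicate 3, with 0 counts.

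Markers of the cells that carry these proteins were set beside them, since bulk RNA cannot tell fewer cells of a type from less RNA per cell. Of 15 pan-leukocyte markers 13 fell (median log2 fold change −1.70), and their summed level was 1319 to 2409 CPM in *K-Ctrl* and 676 to 905 CPM in *K-Setd2KO*. *Ptprc*, the common leukocyte antigen CD45, fell from 231 to 54.4 CPM (log2 fold change −2.08, edgeR adjusted p 0.00560), the lowest log2 fold change of the 15. *Lcp1*, among the 2 most abundant of them, was not called (DESeq2 log2 fold change −0.62, adjusted p 0.0826). Macrophage markers summed to 581 to 1673 CPM in *K-Ctrl* and 207 to 382 CPM in *K-Setd2KO*, with 6 of 12 called lower, among them the scavenger receptor gene *Mrc1* (log2 fold change −2.22). *Marco*, also among the 2 most abundant, was not called in the edgeR fit reported, though DESeq2 called it lower (−2.09, adjusted p 0.0429). Dendritic cell markers summed to 147 to 305 and 48.6 to 84.0 CPM, with 4 of 8 tested genes called lower. None of the 3 lists overlapped between the genotypes in summed level, and among their genes only *Cd209a* was at 0 counts in any *K-Setd2KO* tumor.

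T cell markers summed to 72.5 to 218 CPM in *K-Ctrl* and 11.9 to 64.9 CPM in *K-Setd2KO*. *Cd2* alone held 20.4 to 44.5 and 4.25 to 9.35 CPM of these sums, and the mean log2(CPM + 0.5) of the list overlapped, at 1.55 to 3.51 and −0.02 to 1.90. Of 17 genes 2 were called lower, the adhesion gene *Cd2* (log2 fold change −2.53, edgeR adjusted p 0.00573) and the adaptor gene *Lat* (adjusted p 0.0483, and 0.0533 to 0.115 in the 8 fits without 1 tumor), and the median was −1.66. With a sex term in the fit 10 of the 17 were called lower. Among them was the abundant gene *Cd4*, called in no other fit (DESeq2 log2 fold change −1.70, adjusted p 0.124). The highest sum was that of *K-Ctrl* replicate 2 and the highest *K-Setd2KO* sum that of replicate 1, the same tumors that stood out for *Pdcd1*, *Ctla4* and *Tigit*. The pan T cell gene *Cd3e* was at 3.45, 23.4, 4.25 and 6.25 CPM in *K-Ctrl* and at 5.24, 0.918, 1.02 and 2.22 CPM in *K-Setd2KO*, and the genes *Cd5* and *Cd8b1* were at 0 in some *K-Setd2KO* tumors. Regulatory T cell markers, which mark cells rich in CTLA-4, overlapped at 15.7 to 43.6 and 12.3 to 26.7 CPM, with 0 of 4 tested genes called by edgeR and 0 at an unadjusted p under 0.05, and 0 called by DESeq2 or limma voom. Of 9 NK cell markers only *Klrk1* passed the filter, and it fell (log2 fold change −2.60, edgeR adjusted p 0.0293), a call kept in 3 of the 8 fits without 1 tumor.

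Other marker lists moved less evenly. B cell markers had 1 of 7 tested genes called lower (summed level 34.1 to 108 and 19.7 to 35.5 CPM), endothelial markers 3 of 10 (564 to 2051 and 224 to 542 CPM) and fibroblast markers 2 of 8 (532 to 1206 and 154 to 619 CPM). These counts moved with the fit. The endothelial genes called, *Cdh5*, *Tek* and *Erg*, were called in 3, 2 and 1 of the 8 fits without 1 tumor, and the number of endothelial genes called lower was 0 to 4 in those fits, 8 with DESeq2 and 1 with limma voom. In the fits without 1 tumor B cell genes called lower numbered 1 to 3 and fibroblast genes 0 to 2, while DESeq2 called 4 and 3 and the replicate block 1 and 4. The abundant B cell gene *Cd79b* lay above 0 and was not called (DESeq2 log2 fold change 0.40, adjusted p 0.432). Neutrophil markers had 0 called by edgeR among 5 tested genes, 1 higher at an unadjusted p under 0.05 and 0 called by DESeq2 or limma voom, while edgeR called *Cxcr2* higher without *K-Setd2KO* replicate 2 (summed level 16.8 to 24.2 and 14.3 to 56.5 CPM). *Cxcr2* made up 41.9 CPM of the highest sum, and *Csf3r* had a log2 fold change of −0.82 (edgeR adjusted p 0.257). Epithelial markers had 4 of 9 called higher, led by the transcription factor gene *Elf3* (log2 fold change 1.35), with overlapping sums of 1890 to 2924 and 2520 to 3224 CPM, and 1 to 5 were called higher without 1 tumor and 2 with the sex term. *Krt19* lay below 0 (log2 fold change −0.56, edgeR adjusted p 0.0820) and was called lower without *K-Setd2KO* replicate 2. The 2 most abundant epithelial markers, *Cdh1* and *Krt8*, were not called with all tumors (DESeq2 log2 fold change −0.02 and 0.43, adjusted p 0.964 and 0.276).

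Each checkpoint gene was next expressed relative to markers of cells that carry it, as the difference between its log2(CPM + 0.5) and the mean of the list in the same tumor. Relative to pan-leukocyte genes, *Cd274* stood at −0.01 ± 0.351 in control tumors and at −0.17 ± 0.390 in the others (SD, n = 4 each), which differ by −0.15 (exact permutation p 0.6, two-sided). *Havcr2* was at −1.05 ± 0.166 and −1.23 ± 0.339, a difference of −0.18 (exact permutation p 0.457). Both genes overlapped between the genotypes on this scale, although neither did in CPM, and relative to *Ptprc* alone the sign turned, to 0.31 and 0.28. The part of leukocyte content in the lower *Cd274* and *Havcr2* levels was not tested further.

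None of the other 8 relative values separated the genotypes, in 10 exact tests that were not adjusted and could not go below 0.0286. Relative to pan-leukocyte genes, *Pdcd1lg2* differed by 0.77 (exact permutation p 0.0857) and *Cd80* by −0.26 (exact p 0.543). *Cd86* differed by −0.01 from macrophage genes (exact p 1), with SDs of 0.724 and 0.51 between tumors. Relative to T cell genes the differences were 0.35 for *Pdcd1* (exact p 0.343), −0.18 for *Ctla4* (exact p 0.83), 0.34 for *Lag3* (exact p 0.371) and −0.11 for *Tigit* (exact p 0.886). *Cd276* was the gene with the highest difference, 1.37 above fibroblast genes (exact p 0.0571), whose own level was lower in *K-Setd2KO*. SDs per group ran from 0.267 for *Lag3* to 1.05 for *Ctla4*, both in *K-Setd2KO*, so the size of difference that could be placed varied by gene.

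Around the checkpoint genes, 83 further genes of co-signalling and of PD-L1 control were examined in 7 lists. Of the 73 tested by edgeR, 3 were called higher and 12 lower, against 4.97% and 7.74% of all tested genes. The other inhibitory receptors held 6 of the 12, out of 10 tested (median log2 fold change −1.76). They included *Vsir*, the gene of VISTA, which fell from 49.0 ± 10.7 to 14.3 ± 3.49 CPM (log2 fold change −1.77, edgeR adjusted p 0.00560), and *Sirpa*, the CD47 receptor of macrophages, which fell from 229 ± 72.5 to 68.6 ± 20.3 CPM (−1.74, edgeR adjusted p 0.00834). *Pilra* (−1.74), *Cd244a* (−2.34), *Cd200r1* (−2.23) and *Lair1* (−1.30), all known from myeloid or NK cells, were also called. None of the 6 overlapped between the genotypes, but *Cd200r1* was not called without *K-Ctrl* replicate 3 (edgeR adjusted p 0.0557), nor *Lair1* without *K-Ctrl* replicate 3 or *K-Setd2KO* replicate 3 (up to 0.0672). With a replicate block in the edgeR fit, *Cd244a* (adjusted p 0.0687) and *Lair1* (0.0538) were not called.

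Ligands of these receptors gave a mixed picture, the median log2 fold change being 0.07 over 14 tested genes. *Pvr*, the poliovirus receptor that TIGIT binds, was at 51.2, 64.9, 61.4 and 77.2 CPM in *K-Ctrl* and at 125, 148, 162 and 108 CPM in *K-Setd2KO*. Every *K-Setd2KO* tumor was above every control, and the gene rose 2.14-fold (log2 fold change 1.10, SE 0.169, edgeR adjusted p 0.00807). *Nectin2*, the other TIGIT ligand, was at 80.6 ± 18.0 and 115 ± 35.6 CPM and was not called (log2 fold change 0.51, edgeR adjusted p 0.178). *Cd226*, the costimulatory receptor that shares both ligands with TIGIT, was at 3.69, 9.92, 1.89 and 1.43 CPM in *K-Ctrl* and at 0.308, 0, 0.185 and 0.342 CPM in *K-Setd2KO*. It was the 1 costimulatory receptor of 8 tested that was called (log2 fold change −4.33, SE 0.891, edgeR adjusted p 0.0172), on 235 counts in all controls and 10 in all *K-Setd2KO* tumors. *Cd226* was not called by edgeR without *K-Setd2KO* replicate 3 (adjusted p 0.0539) or with the replicate block (adjusted p 0.0523). *Cd96*, an inhibitory receptor that also binds the poliovirus receptor, had a log2 fold change of −1.98 (edgeR adjusted p 0.148).

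*Fgl1*, a secreted ligand of LAG-3, was at 0.554, 0.504, 1.52 and 0.357 CPM in *K-Ctrl* and at 22.96, 0.765, 7.57 and 14.5 CPM in *K-Setd2KO*. Thus 3 *K-Setd2KO* tumors were well above the controls and replicate 2 was within their range. *Fgl1* rose by this test (log2 fold change 3.88, SE 0.911, edgeR adjusted p 0.0274), but among the 8 fits without 1 tumor it was called in 1 alone, the one without *K-Setd2KO* replicate 2 (edgeR adjusted p 0.00886 there and up to 0.0756 in the rest). It was called by DESeq2 (adjusted p 1.38e-05) and not by limma voom (adjusted p 0.206). The known ligands of TIM-3 were not called in the fit of all tumors, with log2 fold changes of 0.09 for the galectin gene *Lgals9*, 0.65 for *Ceacam1* and 0.37 for *Hmgb1* (edgeR adjusted p 0.730, 0.292 and 0.179), although *Hmgb1* was called higher without *K-Ctrl* replicate 4. *Lgals3*, another LAG-3 ligand, was at 154 ± 57.4 and 73.6 ± 28.7 CPM (log2 fold change −1.06, edgeR adjusted p 0.0881), and was called lower by DESeq2 (adjusted p 0.0258) and by edgeR without *K-Ctrl* replicate 4. *Rgmb*, a PD-L2 partner, was at 28.6 ± 1.11 and 26.3 ± 1.86 CPM. *Cd48*, the ligand of CD244, fell with a log2 fold change of −2.19 (edgeR adjusted p 0.00678).

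Of costimulatory ligands, *Tnfsf9*, the ligand of 4-1BB, rose from 24.6 ± 8.26 to 49.4 ± 12.3 CPM (log2 fold change 1.01, edgeR adjusted p 0.0494). *Icosl*, the ligand of ICOS, fell from 11.5 ± 0.995 to 4.35 ± 1.56 CPM (log2 fold change −1.39, edgeR adjusted p 0.0148) and *Tnfsf15* from 4.43 ± 1.02 to 2.14 ± 0.104 CPM (−1.04, edgeR adjusted p 0.0408). *Icosl* was called in all 8 fits without 1 tumor, whereas *Tnfsf9* and *Tnfsf15* were called in 0 of 8, with edgeR adjusted p from 0.0509 to 0.116 and from 0.0586 to 0.107. *Cd28*, which shares its ligands with *Ctla4*, was at 7.33 ± 6.52 and 2.37 ± 1.67 CPM and was not called (log2 fold change −1.56, edgeR adjusted p 0.175). *Icos* (−1.32) and *Tnfrsf9* (−1.73), both activation-induced costimulatory receptors, were not called either.

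**Figure D4:**
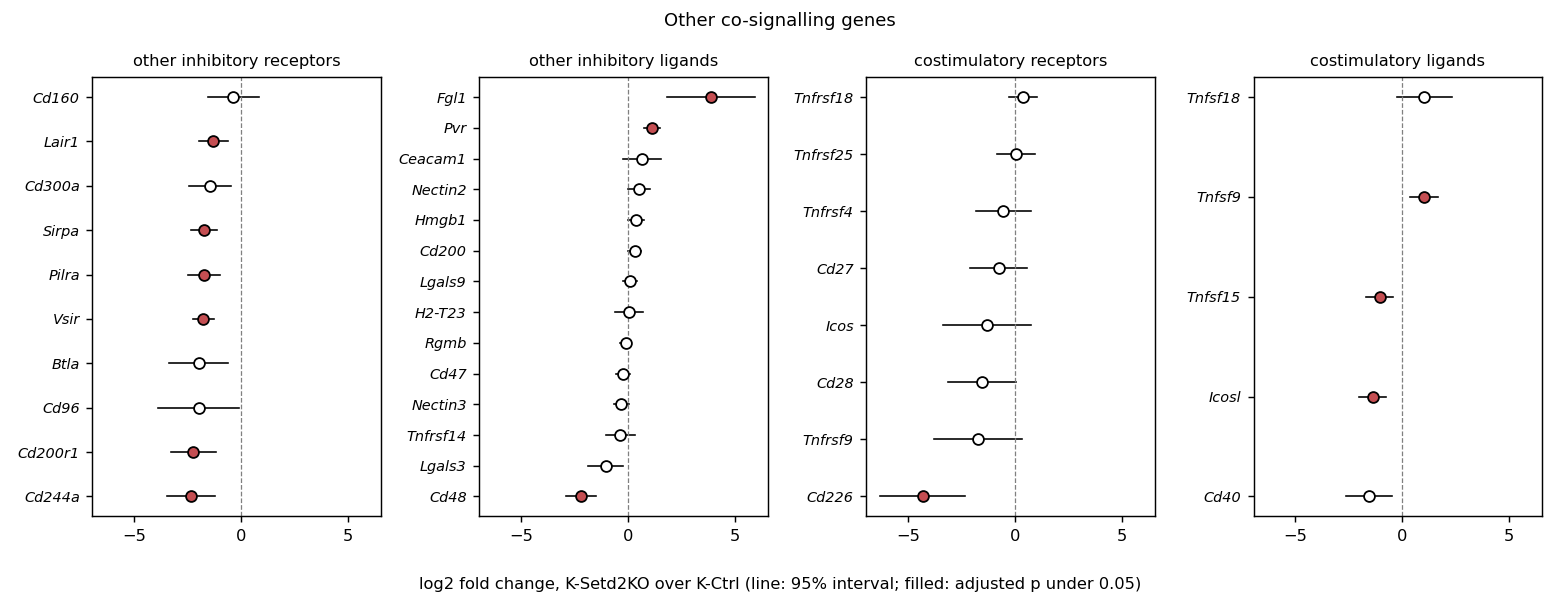
Log2 fold change of *K-Setd2KO* over *K-Ctrl* (x axis, lines are 95% intervals) for tested genes of 4 co-signalling lists; filled points have an edgeR adjusted p under 0.05. The other inhibitory receptors all lie below 0, with 6 of 10 filled, while *Fgl1* and *Pvr* are the filled inhibitory ligands above 0.

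Genes known to act on PD-L1 were compared with *Cd274* itself. Of 19 tested genes of the interferon gamma response, which induces PD-L1, 0 were called by edgeR, 6 were lower at an unadjusted p under 0.05 and 18 lay below 0 (median log2 fold change −0.47). By DESeq2 4 were called lower, *Gbp2*, *Gbp3*, *Gbp5* and *Cxcl10*, and by limma voom 0. Without *K-Setd2KO* replicate 1 edgeR called guanylate-binding protein genes lower, *Gbp2*, *Gbp3*, *Gbp4* and *Gbp5*, with *Gbp5* at −2.79 (adjusted p 0.0304), and with a sex term it called 3, *Gbp2*, *Gbp5* and *Cxcl10*. The other 7 fits without 1 tumor called 0. The lowest values belonged to *Cxcl9* (−1.98), *Cxcl10* (−1.93) and *Gbp5* (−1.91, edgeR adjusted p 0.0911), whereas the receptor gene *Ifngr1* was at −0.59 (edgeR adjusted p 0.107) and the regulator *Irf1* at −0.22. *Gbp5* was at 9.05, 55.6, 26.8 and 25.3 CPM in *K-Ctrl* and at 17.6, 3.67, 3.32 and 5.82 CPM in *K-Setd2KO*, with *K-Setd2KO* replicate 1 within the range of the controls. The part of the interferon response in the *Cd274* level was not tested. Of 11 genes that control PD-L1 transcription or protein stability 0 were called by edgeR, DESeq2 or limma voom, with 1 higher and 1 lower at an unadjusted p under 0.05 and a median of −0.06. These included *Cmtm6*, which keeps PD-L1 at the cell surface (0.27, adjusted p 0.213), *Stat3* (0.36, adjusted p 0.133), *Myc* (−0.70, adjusted p 0.106) and *Hif1a* (0.02, edgeR adjusted p 0.946). Among receptor signalling partners, the phosphatase genes *Inpp5d* (−1.78, edgeR adjusted p 0.0104) and *Ptpn6* (−0.63, edgeR adjusted p 0.0280, up to 0.0853 without 1 tumor) fell, while *Ptpn11*, the phosphatase SHP-2 recruited by PD-1, was at −0.41 (edgeR adjusted p 0.0991).

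Across the 8 tumors, the tested genes whose log2 CPM followed each checkpoint gene most closely were listed by Pearson correlation. These values describe 8 points that share genotype and cell content, and were picked as the highest of 14929. For *Cd274* they were *Abcb10* (0.998), *Olr1* (0.984) and *Fgr* (0.983), and for *Havcr2* they were *Syk* (0.993), *Pik3r5* (0.993) and *Csf2rb2* (0.992). *Cd80* was followed most closely by *Mndal* (0.998), *Cd86* by *Trac* (0.980), *Pdcd1lg2* by *Nfkbie* (0.987) and *Cd276* by *Stn1* (0.939). Among receptors, *Pdcd1* was followed by *Fyb* (0.990), *Ctla4* by *Gm17334* (0.988), *Lag3* by *Mgl2* (0.982) and *Tigit* by *Ccl2* (0.982). The value for *Cd276* was the lowest of the 10.

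By expression of sex-linked genes, *K-Ctrl* replicate 2 and *K-Setd2KO* replicates 1, 2 and 4 were female and the other 4 tumors male, so the sexes were unevenly spread over the genotypes. Within male tumors *Cd274* differed by −1.48 and *Havcr2* by −1.81 on the log2 scale, and within female tumors by −2.12 and −2.07, in each sex with a single tumor set against 3. When the edgeR fit took sex into account, both genes were called (adjusted p 0.0233 and 0.0172), as were *Cd80* (log2 fold change −3.80, adjusted p 0.0377), *Cd86* (−2.26, adjusted p 0.0192) and *Pdcd1lg2* (−2.37, adjusted p 0.0419). Over all other alternatives the adjusted p of these 3 genes reached 0.217, 0.452 and 0.592. The 5 genes called compare with 5.25% of tested genes that this fit called lower. In that fit the female control group is the single tumor *K-Ctrl* replicate 2, the tumor highest in lymphocyte markers.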

How the data were processed

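Poly(A) mRNA of 8 tumors was measured by paired-end sequencing of stranded libraries. The authors deposited raw gene counts, as integers without normalization. The submitters' processing notes name STAR 2.5.2b, featureCounts 1.5.0-p1 and GRCm38.p4. The annotation release and the use of strand in counting are not given in the sources used here, so reads of overlapping genes may be shared. The design text describes frozen tumors and the extraction text cell lines, a difference that was not resolved.

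Symbols came from GENCODE M21 for 48349 of 48709 identifiers (99.26%). Counts were tested with edgeR 4.0.16 in R 4.3.3 (filterByExpr, TMM, robust quasi-likelihood fit, genotype only, Benjamini-Hochberg over 14929 genes). The SE was the absolute log2 fold change over the square root of F. CPM used TMM-scaled library sizes. Exact permutation tests used the 70 assignments of 4 and 4 tumors, on log2 CPM with a prior count of 2 for single genes and log2(CPM + 0.5) for relative values. Scripts were tested on simulated data.

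The checkpoint genes, other lists and tests were chosen with earlier results of these data known. The written rule for naming genes covered the 10 checkpoint genes, up to 4 genes of smallest p per co-signalling list and known binding partners. It also covered the 2 most abundant markers per list and the 3 closest correlates, but not every gene it covered is named. *Cd200r1*, *Lair1*, *Ptprc*, *Cd3e*, *Lat*, *Cd5*, *Cd8b1*, *Cd209a*, *Tek*, *Erg*, *Elf3* and *Krt19* were added after their values were seen. So were *Sftpb*, *Napsa*, *Gbp2*, *Gbp4*, *Cxcl9*, *Irf1* and *Hif1a*. Of 83 co-signalling genes 82 had a row, without *Lilrb4a*.

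Nothing in the labels says that the tumors of a group came from separate mice, so p-values measure the spread between these samples. The lowest chi-square between tumors of a group was 30.5 per degree of freedom, so none were treated as copies. Limits given for 0 counts cover counting error only. The replicate numbers did not pair the tumors, with correlations of deviations from −0.07 to 0.19. Alternatives were DESeq2 1.42.0, limma voom 3.58.1, other size factors and filters, a replicate block, a sex term, other pseudocounts and marker lists, and leaving out each tumor. The allele that starts the tumors is not reported here.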

Additional observations from a re-analysis of the deposited data

Results flagged for a closer look

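In 7 of 44 groups of 4 values, 1 tumor stood apart from the other 3 of its genotype, with a gap to the nearest tumor above Dixon's 95% critical share of the group's range. Chance gives about 1 in 20, or 2.2 groups. *K-Ctrl* replicate 2 stood above the other controls for *Cd86* (19.2 CPM) and *Ctla4* (19.7 CPM), and for the summed markers of T cells (218 CPM), regulatory T cells (43.6 CPM) and neutrophils (24.2 CPM). *K-Setd2KO* replicate 1 stood above the other tumors of its group for *Pdcd1* (3.44 CPM) and for the summed NK cell markers (4.93 CPM). The 7 groups are not independent, since the same tumors and related genes recur in them. *Cd274* and *Havcr2* contained no such tumor.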

How the results depend on the processing

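*Cd274* and *Havcr2* were called lower in each alternative run, with log2 fold changes from −2.01 to −1.53 and −1.96 to −1.60 when 1 tumor was left out, where the number of checkpoint genes called lower was 2 in all 8 fits and that called higher 0. It was 5 with the sex term and 3 with DESeq2, which added *Cd80* (adjusted p 0.0166, with a highest value of 0.217 over its alternatives), against 10.6% of genes called lower by DESeq2. With the replicate block, which the pairing check did not back, no checkpoint gene changed its call, *Cd274* was at −1.73 and *Havcr2* at −1.78, and 1341 genes in all were called instead of 1897. All genes called were 3211 with DESeq2, 1237 with the sex term and 763 to 2058 without 1 tumor. *Pdcd1lg2* could not be fitted without *K-Ctrl* replicate 3, which took it below the filter, and only *Cd274*, *Cd86*, *Cd276* and *Havcr2* had 10 counts in every tumor.

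The co-signalling genes called lower, 12 in the test reported, were 22 with DESeq2 and 8 to 17 without 1 tumor. Those called higher, 3 as reported, were 1 without the filter, with every tumor held to 10 counts, with the replicate block and with the sex term, and 1 to 2 without 1 tumor.

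Relative values, none of which separated the genotypes, changed sign in 18 of 116 alternatives. Relative to *Ptprc* alone they were 0.31 for *Cd274*, 0.20 for *Cd80*, 0.73 for *Cd86*, 0.45 for *Ctla4*, 0.28 for *Havcr2* and 0.52 for *Tigit*. With a pseudocount of 1 they were 0.10 for *Cd80* and 0.10 for *Cd86*, and with the pan-leukocyte list 0.26 for *Cd86* and 0.057 for *Tigit*. Without 1 tumor they ran from −0.27 to 0.024 for *Cd274*, −0.20 to 0.33 for *Cd86*, −0.52 to 0.30 for *Ctla4* and −0.44 to 0.068 for *Tigit*. In 4 alternatives a relative value reached the smallest exact p of 0.0286: *Pdcd1lg2* with a pseudocount of 1 (0.94), *Cd276* relative to *Ptprc* (2.32) and without *K-Setd2KO* replicate 1 (1.70), and *Lag3* without *K-Ctrl* replicate 4 (0.64). The cause was not tested.

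Of 153 alternatives for log2 fold changes, none changed sign and 4 passed the threshold newly. Counts were low for *Pdcd1lg2*, *Cd80*, *Pdcd1*, *Lag3* and *Tigit*, at 0 to 69 per *K-Setd2KO* tumor, and the parts of depth and of spread between tumors in their wide intervals were not tested.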
